A study of Mus musculus with 2 samples.

Results

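Potassium channel genes were described across the cell types of a mouse ciliary epithelium dissection. The members were all genes whose symbol starts with Kcn and that had at least 20 unique molecular identifiers (UMIs, each standing for 1 captured RNA molecule) over both libraries, without Kcnj13 and Kcnj10. Of 99 genes with such a symbol, 75 of the 33456 genes in all met this rule. The members just inside the limit were Kcnd3os with 24 UMIs, Kcnk7 with 26, and Kcnk4 and Kcnmb1 with 27 each. Just outside it were Kcnk10 with 17 UMIs, Kcnh3 with 15 and Kcna3 with 13. Tissue came from wild-type C57BL/6 mice on postnatal day 35, with no treatment, in 1 group of 2 droplet single-cell libraries. Library 1 pooled 3 sets of eyes, and library 2 pooled 3 or 4, since its labels give both numbers. Each library is a pool, so n = 2 for every value, and no animal can be followed.

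Potassium channels let potassium leave or enter the cell and thereby set the resting potential and shape electrical signals. Voltage-gated (Kv) channels are assembled from pore-forming subunits, with silent modifier subunits and accessory proteins that change their gating. Inward rectifiers (Kir) and two-pore (K2P) channels hold the resting potential, and calcium- or sodium-activated channels tie potassium flow to other ions. In the ciliary body, a pigmented and a non-pigmented epithelial layer secrete the aqueous humour, and potassium channels are part of the ion transport that this needs. In photoreceptors, potassium channels of the inner segment are known to carry the outward current that shapes the light response.

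The deposited matrices held 4764 barcodes with 22510387 UMIs for library 1 and 6220 barcodes with 30683405 UMIs for library 2. Filtering left 3865 and 5466 cells, whose median depth was 4128 and 2968 UMIs, and 8 of their barcodes occurred in both libraries. Cells were clustered on other genes than those tested, and the comparisons used the 21 classes that had 20 or more cells per library. Class names stand for clusters that are like that type by marker genes, for example rod-like clusters for rods. Best2, a defining gene of the non-pigmented ciliary epithelium, was at 192 and 208 CPM (counts per 1000000 UMIs of the class) in that class and at 1.17 and 1.42 CPM in the pigmented epithelium. The dissection also held retinal, stromal, vascular and immune cells. Some limits of these classes touch the values below. Cnga1, a subunit of the rod light-response channel, had a median of 12.6 CPM in library 1 and 105 CPM in library 2 over 14 classes outside the retina, against 2402 and 1890 CPM in rods. The cone class carried Pcp2, a bipolar cell gene, at 778 and 840 CPM, against 7.83 and 109 CPM in rods. A UMI of the bipolar genes Trpm1 or Grm6 was held by 12 of 74 cone cells in library 1 and 99 of 275 in library 2. Among rods, 5 of 145 and 152 of 899 cells held one. Where such cells are left out below, they were left out of the cones only. In the pigmented epithelium, 60 of 135 and 52 of 214 cells held a UMI of the smooth muscle gene Myh11. The markers used do not tell whether the cells of this class lie in the ciliary body or the iris.

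Many members were higher in retinal neurons. Of 71 members with enough UMIs to test, 36 were higher in the 6 classes of retinal neurons than in 14 other classes (edgeR's quasi-likelihood test, Benjamini-Hochberg adjusted p under 0.05 and at least 2-fold), against a background of 21.2% of all 8177 genes tested. The count of members lower in neurons was 0, against 8.05% of all genes, with 0 at an unadjusted p under 0.05 and 9 by DESeq2. The share of all genes lower by DESeq2 is not given here, so the 9 stands without a background. The 0 by edgeR comes from the form of the test. A class at 0 UMIs in both libraries has no finite log level, so a member with such a class among the neurons cannot be called higher, and one with such a class among the others cannot be called lower. Of the 71 members, 31 had a class at 0 on both sides, of which 0 were called, and only 5 had none among the others. A limma fit on log2 CPM with a prior count of 2, which gives such classes a finite level and was added after seeing the data, called 36 members higher (15.9% of all genes) and 7 lower (15.7%). Of its 36, 31 were also called by edgeR, and the others were Kcna4, Kcnc2, Kcnh5, Kcnj6 and Kcnj12. Among the 7 lower were Kcne4, Kcnj8, Kcnn4, Kcnk5, Kcnk6 and Kcnk13, which were led by stromal, vascular, glial and immune classes. The median log2 fold change of the members, neurons over others, was 2.35 by edgeR and 1.06 by limma, and that of all genes was 0.26 and 0.09. These medians depend on the prior count.

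By role, the counts below are a description, since no test compared the roles, and they stand against the 21.2% of all genes higher in neurons by edgeR and the 15.9% by limma. Members with a neuron class at 0 UMIs, which edgeR cannot call higher, were 9 of 24 voltage-gated pore subunits, 2 of 13 accessory proteins, 3 of 6 modifiers, 4 of 8 calcium- or sodium-activated channels, 6 of 9 inward rectifiers and 6 of 8 two-pore channels. By edgeR, of the voltage-gated pore subunits, 13 of 24 tested were higher in neurons. Among accessory proteins 10 of 13 were higher, among modifier subunits 3 of 6, among calcium- or sodium-activated channels 4 of 8, and among inward rectifiers 3 of 9. Two-pore channels stood at 2 of 8, namely Kcnk1 and Kcnk3, with a median log2 fold change of -1.47 by edgeR and -0.53 by limma over the 8. In the last 4 of these groups the count is that of all members that could be called. By limma, 15 of 24 voltage-gated subunits, 7 of 13 accessory proteins, 2 of 6 modifiers, 4 of 8 calcium- or sodium-activated channels, 5 of 9 inward rectifiers and 2 of 8 two-pore channels were higher, and 3 of 8 two-pore channels were lower. The 6 members with the largest fold and enough UMIs were Kcnip2, Kcnn2, Kcnmb2, Kcnt1, Kcnj9 and Kcnc1, with log2 fold changes between 4.36 and 5.19. Kcnc1, which encodes the fast Kv3.1 channel, had 149 and 655 UMIs in neurons and 8 and 40 in the other classes (adjusted p = 6.75e-15). Kcnip2, a calcium-binding partner of Kv4 channels, had 33 and 128 UMIs against 1 and 5 (adjusted p = 2.18e-07), and lost its call without the 5% of cells with the most UMIs, where the log2 fold change was 4.55. Kcnj9 had 43 and 215 UMIs against 1 and 11, and Kcnmb2 had 21 and 181 against 2 and 7. Kcnmb2 lost its call when cone cells with a bipolar UMI were left out, with a log2 fold change of 3.92, and when classes of at least 10 cells entered (3.77). In the latter fit retinal ganglion cells joined the neurons, with 0 UMIs of Kcnmb2 in both libraries, so it could not be called higher. Whether a class at 0 UMIs lay behind the former loss, or behind that of Kcnip2, was not tested. The 6 members kept their calls by limma.

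**Figure D1:**
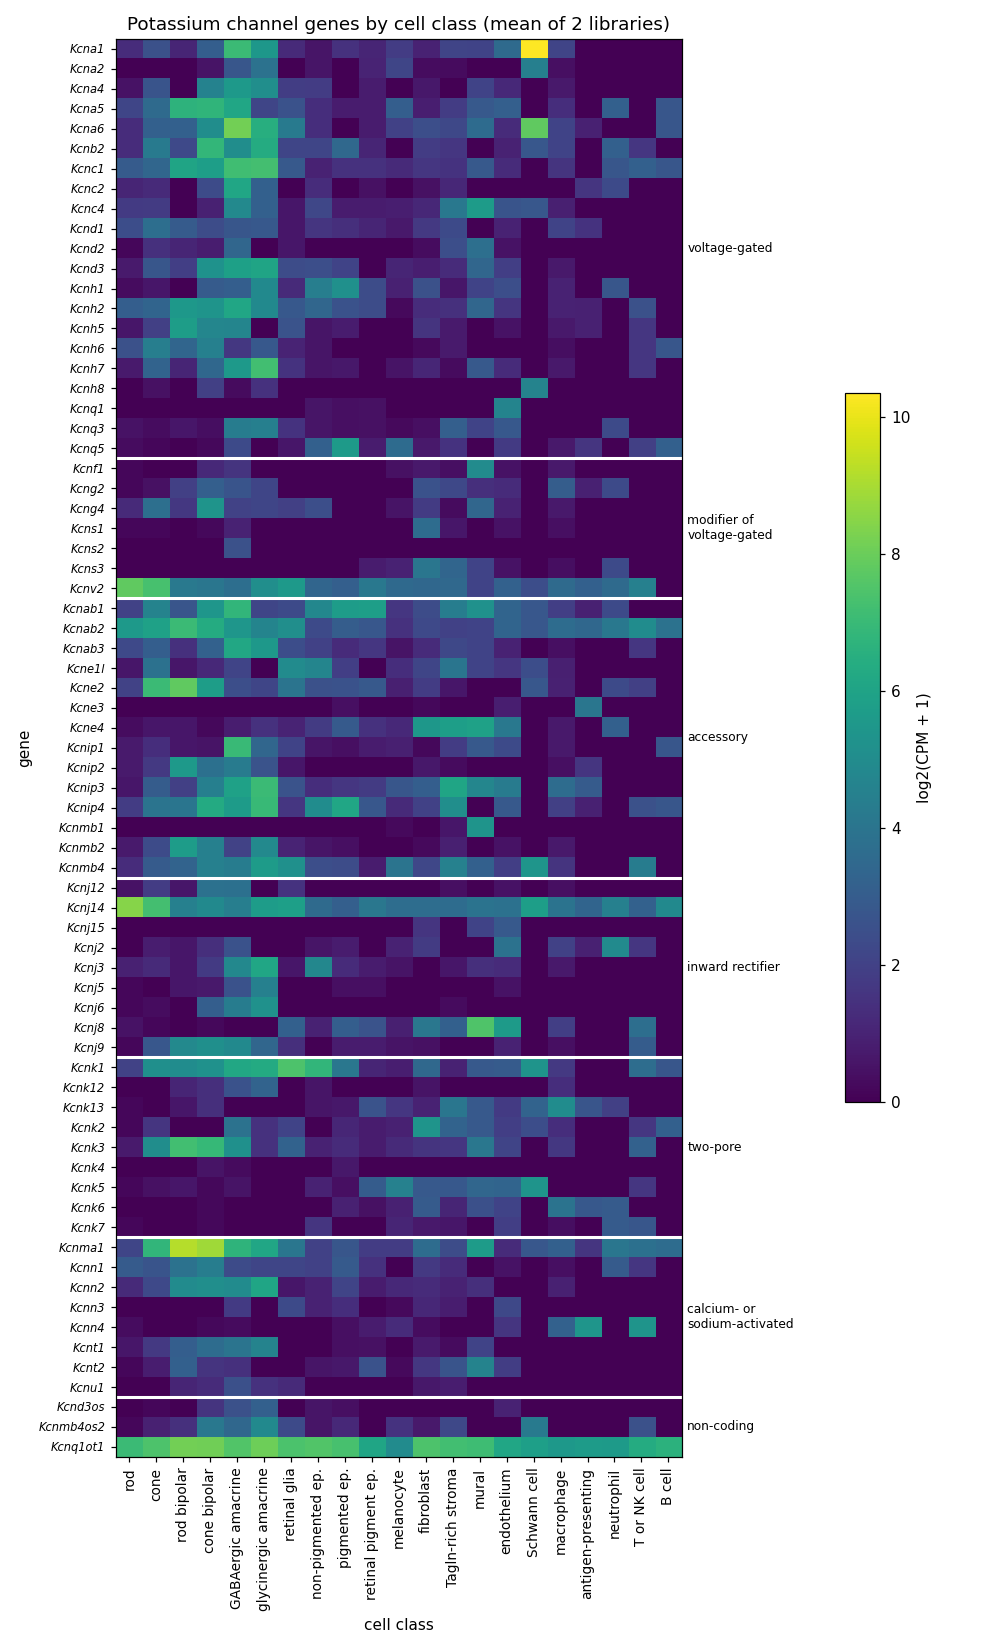
Mean level of the members reported here (rows, grouped by role) in 21 cell classes (columns), as log2(CPM + 1) of the mean over 2 libraries. Bright tiles are most frequent in the 6 neuron classes on the left, and Kcna1 in Schwann cells is the brightest tile.

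Between single classes, 69 of 71 tested members varied, against 81.3% of all genes, and the exceptions were Kcnn3 and Kcnk7. GABAergic amacrine cells had 48 members above the mean of the other classes (20.3% of all genes), cone bipolar cells 40 (18.1%), cones, whose class carried bipolar RNA, 31 (20.0%), glycinergic amacrine cells 28 (9.45%) and rod bipolar cells 20 (11.8%). Rods had 8 (19.0%) and retinal glia 10 (13.3%), which are 11.3% and 14.1% of the members tested. The non-pigmented ciliary epithelium had 11 (15.8%), the pigmented epithelium 9 (15.7%) and the retinal pigment epithelium 6 (17.3%). In the stroma, Tagln-rich cells had 17 (18.6%), fibroblasts 16 (20.9%), mural cells 12 (8.82%), endothelium 11 (15.1%), Schwann cells 6 (4.32%) and melanocytes 4 (16.2%). Immune classes had few: macrophages 7 (18.1%), antigen-presenting cells 3 (12.5%), T or NK cells 3 (8.14%), neutrophils 2 (8.67%) and B cells 0 (3.52%), with 0 also at an unadjusted p under 0.05 and by DESeq2. B cells held only 10 and 28 UMIs of all members together, from 62166 and 85441 UMIs. A member at 0 UMIs in a class cannot be called higher there, so the 0 of B cells says little about the members. This limit holds for every class, and depth differed, with 81168 and 283066 UMIs in glycinergic amacrine and 384821 and 3137029 in cone bipolar cells. All members together were at 2539 and 2250 CPM in GABAergic and 2637 and 1830 CPM in glycinergic amacrine cells. Cone bipolar cells were at 2235 and 2047 CPM and rod bipolar cells at 2318 and 1964 CPM, so the counts do not rank total levels. Against classes that hold 0 UMIs a fitted fold depends on the small count that the fit adds, so levels rather than folds are given for single classes. The highest class, here and below among the 21 classes of the fit, was the same in both libraries for 50 of 75 members, and 31 of these also had at least 10 UMIs there in each library.

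Rods were the highest class for Kcnj14 and Kcnv2 by the mean of both libraries. Kcnv2 (GRCm38 chr19:27322588-27337179), a silent modifier subunit of Kv channels, was at 258 CPM in library 1 and 187 CPM in library 2 in rods, and at 131 and 190 CPM in cones. It did not differ between rods and cones past the threshold, with a log2 fold change of 0.66 ± 0.48 (SE) and an adjusted p of 0.625. It was higher in rods than in the other classes (adjusted p = 3.67e-14). Kcnj14 (chr7:45816460-45824782), an inward rectifier, was at 450 and 262 CPM in rods and at 85.3 and 223 CPM in cones (log2 fold change 1.69 ± 0.46, adjusted p = 0.0230). It was the 1 member higher in rods, against 0.428% of all genes. The gap was wide in library 1, whereas in library 2 it came to a log2 difference of 0.23, and Cnga1 in the cone class was at 410 CPM in library 1 and at 1161 CPM in library 2. The call was lost under 7 of 14 alternatives, with adjusted p-values from 0.124 to 0.802. Outside the retina both genes were found at low levels in library 2, with medians over 14 classes of 23.2 CPM for Kcnj14 and 16.8 CPM for Kcnv2. Those medians were 8.86% and 8.97% of the rod level, and the same ratio for Cnga1 was 5.57%. In library 1 the ratios were 0.665% and 1.12%, and 0.526% for Cnga1. In library 2 Cnga1 was at 243 CPM in Schwann cells, 540 CPM in retinal glia and 413 CPM in glycinergic amacrine cells, and its part in the levels of Kcnj14 and Kcnv2 there was not tested.

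Kcne2, an accessory subunit known to slow or reshape several Kv channels, separated cones from rods. It was at 154 CPM (47 UMIs) and 108 CPM (409 UMIs) in cones and at 0 and 6.22 CPM in rods (0 and 23 UMIs). The log2 fold change, rods over cones, was -4.58 ± 0.58, with an adjusted p of 2.88e-06. Rod bipolar cells had more, at 225 and 233 CPM, and cone bipolar cells had 31.2 and 75.9 CPM. When cone cells holding a bipolar UMI were left out, Pcp2 in the remaining cones fell to 45.5 and 50.6 CPM, and Kcne2 stood at 176 and 150 CPM (log2 fold change -4.95 ± 0.56, adjusted p = 3.23e-07). With Kcne2, 9 members were lower in rods than in cones, against 3.44% of all genes. Kcnk3, Kcnk1, Kcnb2, Kcnip3, Kcnj9 and Kcne1l among them lost the call in the cones without a bipolar UMI. There Kcnk3 went from 32.8 and 32.8 to 17.1 and 3.94 CPM, and Kcnk1 from 39.4 and 29.1 to 0 and 7.23 CPM. Kcnma1 went from 125 and 99.5 CPM to 79.7 and 30.2 CPM and was still called (log2 fold change -2.66 ± 0.63, adjusted p = 0.0143), although not with another random split of genes (adjusted p = 0.103). Kcnab1, a Kv beta subunit, was also called there, with 45.5 and 22.3 CPM in those cones and a log2 fold change of -3.26 ± 0.58 (adjusted p = 0.000364). It was picked out after its values were seen, and its call was lost at the 15% mitochondrial limit (adjusted p = 0.114), with another random split of genes (0.0738) and by limma (0.213). Kcnh6, an ether-a-go-go related channel, was at 36.1 and 4.77 CPM in cones, which rests on library 1. Cone bipolar cells were the highest class for Kcnh6 by the mean, at 28.58 and 14.98 CPM. The call of Kcnh6 in cones, against the mean of the other classes, was lost by DESeq2 (adjusted p = 0.168).

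**Figure D2:**
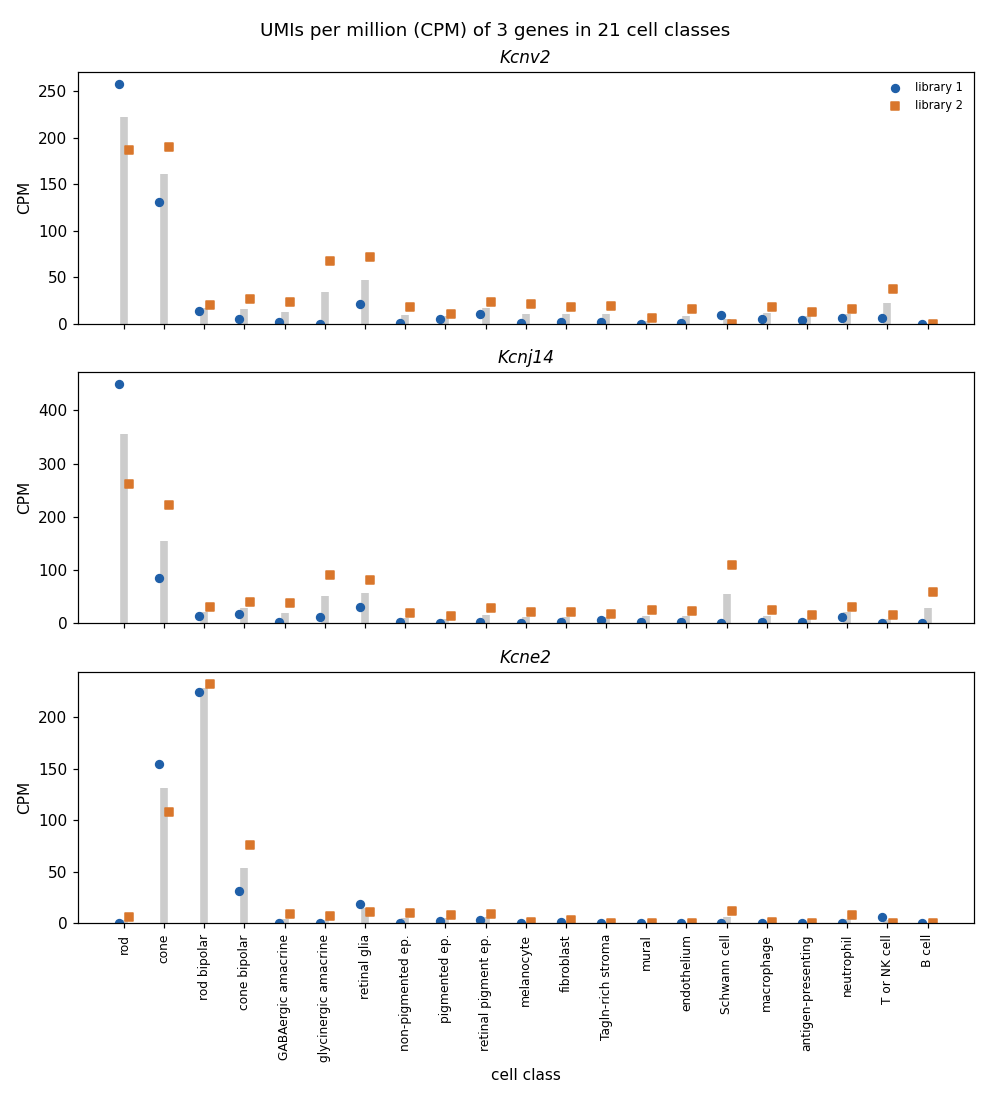
Level (CPM, linear axes) of Kcnv2, Kcnj14 and Kcne2 in 21 cell classes, with 1 point per library and a grey bar to the mean of both. Kcnv2 and Kcnj14 peak in rods and cones, with lower levels in most other classes of library 2, whereas Kcne2 is at 0 and 6.22 CPM in rods and peaks in rod bipolar cells.

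Bipolar cells, which pass photoreceptor signals to the inner retina, had the large-conductance calcium-activated channel Kcnma1 (chr14:23289431-24014491) as a leading member. It was at 670 and 500 CPM in rod bipolar cells and at 522 and 416 CPM in cone bipolar cells, with no difference past the threshold between them (log2 fold change 0.41 ± 0.37, adjusted p = 0.983). Of the other classes in the fit, cones were at 125 and 99.5 CPM, or 79.7 and 30.2 CPM without cells holding a bipolar UMI, and GABAergic amacrine cells at 113 and 96.4 CPM. Its accessory beta subunit Kcnmb2 followed, at 42.1 and 62.3 CPM in rod bipolar and at 15.6 and 28.4 CPM in cone bipolar cells. Kcnk3, the acid-sensitive TASK-1 channel, was at 173 and 122 CPM in rod bipolar cells and at 125 and 117 CPM in cone bipolar cells. Kcna5, a Kv1 subunit, stood at 122 and 84.6 CPM in the former and 120 and 98.5 CPM in the latter. Rod bipolar cells were further the highest class for Kcnab2 (136 and 126 CPM), Kcnip2 (70.2 and 24.5 CPM) and Kcnh5 (42.1 and 64.6 CPM). Kcnn1, a small-conductance calcium-activated channel, had 10 and 42 UMIs in cone bipolar cells and 2 and 17 in rod bipolar cells.

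Kcng4, Kcnj9 and Kcnb2 were highest in cone bipolar cells in both libraries, with at least 10 UMIs each. The starts of Kcng4 and Kcnj9 are shown, since they were the only members among 56 in a RefSeq promoter table (GRCm38.p6) with the letters TAATCC, searched on both strands. That word is bound by the homeobox factors OTX2 and CRX of photoreceptors and bipolar cells. Each sequence runs 5′ to 3′ from 250 bases before to 50 bases after the gene's start, and capitals mark the match.
Kcng4 (chr8:119635631-119635930, minus strand): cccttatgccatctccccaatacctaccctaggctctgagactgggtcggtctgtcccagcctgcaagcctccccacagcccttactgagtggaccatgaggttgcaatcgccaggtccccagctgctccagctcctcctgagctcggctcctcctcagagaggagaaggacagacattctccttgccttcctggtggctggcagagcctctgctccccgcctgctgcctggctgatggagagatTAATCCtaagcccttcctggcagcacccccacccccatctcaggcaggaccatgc
Kcnj9 (chr1:172329273-172329572, minus strand): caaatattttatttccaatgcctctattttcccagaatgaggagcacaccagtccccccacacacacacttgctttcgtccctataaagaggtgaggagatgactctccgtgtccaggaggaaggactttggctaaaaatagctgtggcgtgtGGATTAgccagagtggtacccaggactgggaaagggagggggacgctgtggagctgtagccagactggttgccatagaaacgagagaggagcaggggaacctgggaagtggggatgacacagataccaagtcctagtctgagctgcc
The match begins 5 bases before the start in Kcng4 and 97 bases before it in Kcnj9, where it lies on the other strand as GGATTA. Of all 32851 promoters of that length, 7.06% hold the word, so a match is a description and no sign of a site in use. The 56 members had 77 promoters, so matches in 2 members are no excess over that share. The letters TAATTA (5.29%) and another motif, the CArG box (1.63%), were also counted over all promoters. The 2 promoters of Kcne2, a member high in rod bipolar cells and cones, hold no match. Entries for Kcnv2, Kcnj14, Kcnb2 and Kcnk3 were not found in the table.

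Rod bipolar and cone bipolar cells differed in 7 members. Kcne2 was the 1 member higher in rod bipolar cells, against 0.379% of all genes, with a log2 fold change of 2.12 ± 0.43 (adjusted p = 0.00293). There, 6 were lower, against 1.36% of all genes. Kcnb2, the Kv2.2 subunit, was at 0 and 7.79 CPM in rod bipolar cells and at 138 and 92.4 CPM in cone bipolar cells (log2 fold change -4.18 ± 0.73, adjusted p = 0.000519). Kcna4, the inactivating Kv1.4 subunit, had 0 UMIs in rod bipolar cells of either library and 10 and 64 in cone bipolar cells. With 3 counts over both libraries as the limit, it was at least 7.79-fold higher in cone bipolar cells. Kcng4, a silent modifier of Kv2 channels, had 0 and 4 UMIs against 17 and 112 (adjusted p = 0.0108). Kcnd3, a Kv4 subunit, had 0 and 5 UMIs against 17 and 100, and the KChIP protein Kcnip4, a Kv4 partner, had 4 and 11 against 37 and 203. Kcnab1 had 0 and 10 UMIs against 18 and 120. Of these, Kcnb2 kept the call under every alternative run. Kcne2, Kcna4, Kcng4 and Kcnd3 lost it by DESeq2 and without the library term, with adjusted p-values from 0.0581 to 0.440. By limma, Kcne2 (adjusted p = 0.334), Kcnip4 (0.314) and Kcnab1 (0.0595) lost it, and Kcnab1 also without the library term (0.0652) and at the 15% mitochondrial limit (0.167).

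**Figure D3:**
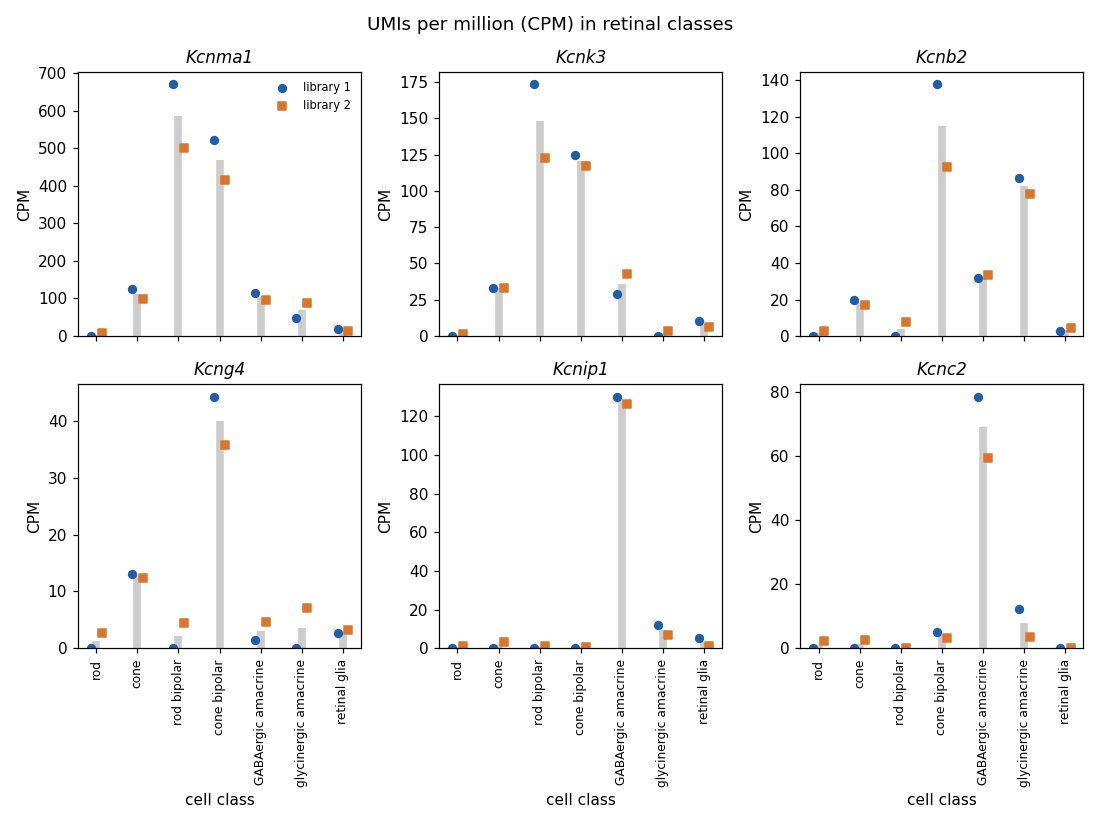
Level (CPM, linear axes that differ between panels) of 6 members in 7 retinal classes, 1 point per library and a grey bar to the mean. Kcnma1 and Kcnk3 are high in both bipolar classes, Kcnb2 and Kcng4 in cone bipolar cells, and Kcnip1 and Kcnc2 in GABAergic amacrine cells.

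Amacrine cells, the interneurons of the inner retina, held many of the Kv subunits. In GABAergic amacrine cells, Kcnip1, a KChIP partner of Kv4, was at 130 and 126 CPM, and in glycinergic amacrine cells it was at 12.3 and 7.07 CPM. Kcnc2, a Kv3 channel of fast-firing cells, was at 78.6 and 59.5 CPM in the GABAergic class against 12.3 and 3.53 CPM in the glycinergic one. Kcnj6, a G protein-gated inward rectifier, was at 27.2 and 11.2 CPM in the former and at 49.3 and 24.7 CPM in the latter. Kcna6 (326 and 234 CPM), Kcna1 (147 and 115 CPM), Kcnab1 (81 and 216 UMIs), Kcnab3 (89.2 and 55.7 CPM), Kcna4 (62.0 and 32.3 CPM) and Kcnh2 (62.0 and 74.9 CPM) were also high in GABAergic amacrine cells. For Kcna6, Kcnab1, Kcnab3, Kcna4 and Kcnh2 this class was the highest in both libraries. Glycinergic amacrine cells, with 34 and 66 cells, were the highest class for 17 members by the mean, 11 of them in both libraries. Kcnh7, an ether-a-go-go related channel, was at 160 and 134 CPM there and at 49.9 and 43.5 CPM in GABAergic amacrine cells. Kcnc1 was shared, at 148 and 159 CPM in the glycinergic and 150 and 135 CPM in the GABAergic class. Kcnip3 stood at 185 and 77.7 CPM and Kcnip4 at 172 and 74.2 CPM. Members with their highest mean there and at most 8 UMIs in library 1 included Kcnd3, Kcnj3, Kcnj5, Kcnk12, Kcnn2, Kcnq3, Kcnt1, Kcnmb4 and the antisense RNAs Kcnd3os and Kcnmb4os2. The 2 amacrine classes were not compared in a test of their own.

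The Kv7 channel Kcnq5 was higher in the pigmented epithelium and the two-pore channel Kcnk1 in the non-pigmented ciliary epithelium. In the non-pigmented epithelium 4 members were higher, against 3.50% of all genes, and 2 in the pigmented epithelium, against 2.15%. Kcnq5 (chr1:21398403-21961942), a voltage-gated channel that opens near the resting potential, was at 50.4 and 48.2 CPM in the pigmented epithelium and at 9.31 and 6.96 CPM in the non-pigmented one. The log2 fold change, non-pigmented over pigmented, was -2.56 ± 0.50 (adjusted p = 0.000501). Kcnk1 (chr8:125995170-126030685), the two-pore channel TWIK-1, was at 95.2 and 127 CPM in the non-pigmented epithelium and at 9.37 and 23.4 CPM in the pigmented one (log2 fold change 2.73 ± 0.45, adjusted p = 4.06e-05). For Kcnq5 and Kcnk1 both libraries of one class lay above both of the other. By limma the folds were alike but the calls were lost, with an adjusted p of 0.0810 for Kcnq5 and 0.356 for Kcnk1, and that fit called 2 members higher and 0 lower.

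Kcnj3, a G protein-gated inward rectifier known from heart and brain, had 29 and 24 UMIs in the non-pigmented epithelium and 0 and 4 in the pigmented epithelium. The log2 fold change was 4.02 ± 0.76 (adjusted p = 0.000338). Kcnj5, Kcnj6 and Kcnj9, subunits it is known to assemble with, had 0 UMIs in both libraries of this class. Kcne1l, a KCNE accessory subunit, had 25 UMIs in each library against 3 in each (log2 fold change 3.20 ± 0.67, adjusted p = 0.00111). Kcng4 was also called, with 3 and 6 UMIs against 0, at least 3.45-fold higher. Kcnh1, an ether-a-go-go channel, was at 20.7 and 19.9 CPM in the non-pigmented and 24.6 and 47.4 CPM in the pigmented epithelium, with no difference past the threshold (log2 fold change -0.80 ± 0.51, adjusted p = 0.524). Kcnj3 and Kcne1l kept the call under every alternative run, and Kcnq5 and Kcnk1 under all but limma, the one without Myh11 cells included.

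The pigmented epithelium was also compared with the retinal pigment epithelium, which lies behind the photoreceptors. In the former 4 members were higher, which is 5.63% of those tested, against 4.84% of all genes. In the latter 3 were higher (4.23%), against 5.14%, so both counts were near the share of all genes. Kcnq5 had 43 and 68 UMIs in the pigmented epithelium and 1 in each library in the retinal pigment epithelium (log2 fold change 5.61 ± 0.70, adjusted p = 1.10e-07). Kcnip4 was at 75.0 and 62.3 CPM against 7.04 and 5.10 CPM (log2 fold change 3.14 ± 0.47, adjusted p = 2.81e-06), and Kcnh1 had 21 and 67 UMIs against 2 and 10 (adjusted p = 0.00129, and 0.0508 by limma). Kcnk1 had 8 and 33 UMIs against 1 and 2. The 3 members higher in the retinal pigment epithelium were Kcnt2, Kcnk5 and Kcnk13, with 5 to 11 UMIs each per library there and at most 1 in the pigmented epithelium. That count is 1 without Myh11 cells, by DESeq2, at the 15% mitochondrial limit and without the 5% of cells with the most UMIs. Kcnab1, a Kv beta subunit, was at 51.4 and 59.0 CPM in the retinal pigment epithelium and 46.9 and 56.6 CPM in the pigmented epithelium.

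**Figure D4:**
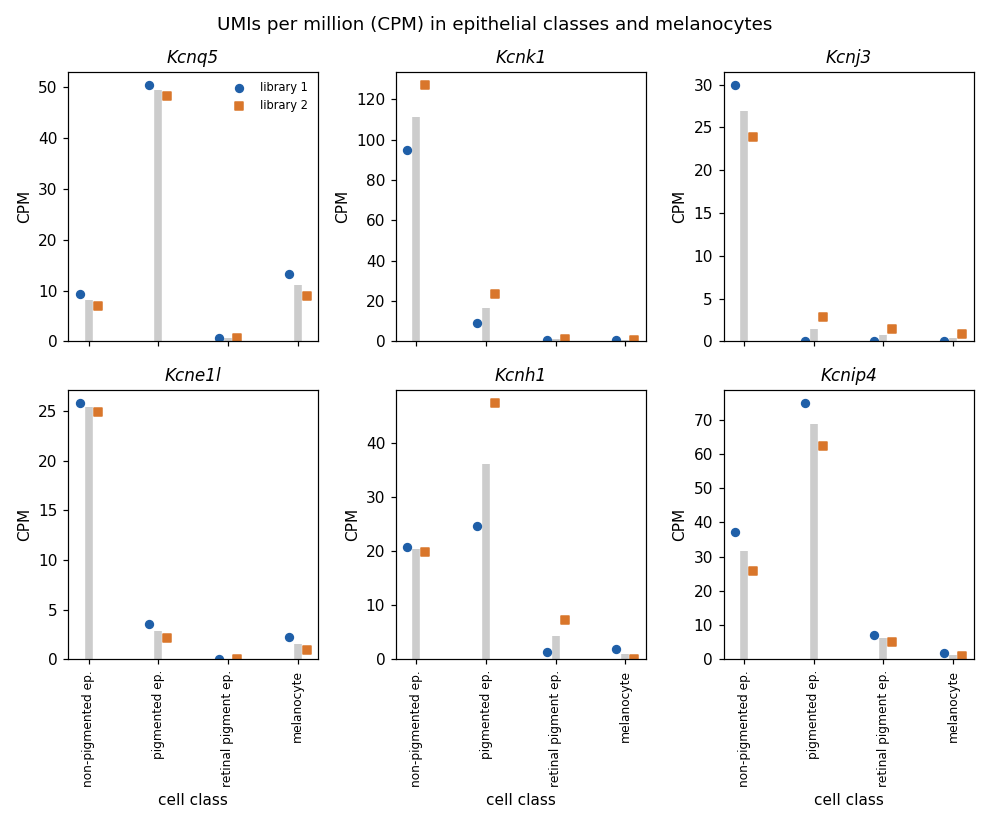
Level (CPM, linear axes that differ between panels) of 6 members in the non-pigmented ciliary epithelium, the pigmented epithelium, the retinal pigment epithelium and melanocytes, 1 point per library and a grey bar to the mean. Kcnq5 and Kcnip4 are highest in the pigmented epithelium and Kcnq5 is nearly lacking from the retinal pigment epithelium, and Kcnk1, Kcnj3 and Kcne1l stand out in the non-pigmented epithelium.

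Schwann cells and retinal glia are described by their own levels, since no test compared them. In Schwann cells, which wrap peripheral axons, Kcna1 (chr6:126640397-126646384), the Kv1.1 subunit, was at 1591 and 1019 CPM, with 179 and 84 UMIs from 41 and 31 cells (adjusted p = 1.13e-23). The next class, GABAergic amacrine cells, was at 147 and 115 CPM. Kcna6 (chr6:126708329-126740674), which lies beside Kcna1, was at 222 and 230 CPM in Schwann cells (adjusted p = 2.56e-13). Kcna5 (chr6:126532551-126535412), on the other side of Kcna1, had 0 UMIs there in both libraries. Kcna2 had 2 UMIs in each library and Kcnh8 had 4 and 1. In retinal glia, Kcnk1 was at 186 and 160 CPM (adjusted p = 3.55e-15), Kcne1l at 45.2 and 17.1 CPM, and Kcnmb4, a BK beta subunit, at 42.5 and 27.8 CPM. The calls of Kcnj14 and Kcnv2 in retinal glia came with Cnga1 at 199 and 540 CPM in that class. Kcnmb4 overlaps the antisense RNA Kcnmb4os2, and the sources do not state whether counting used the strand.

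Vascular cells carried the channel of ATP-sensitive currents. In mural cells, the pericytes and smooth muscle cells of vessels, Kcnj8 (chr6:142564837-142571614), the pore subunit Kir6.1, was at 133 and 229 CPM (41 and 36 UMIs, adjusted p = 4.33e-14). Endothelium was at 54.0 and 43.8 CPM. Abcc9, the regulatory subunit that pairs with Kir6.1, was at 87.6 and 255 CPM in mural cells and at 46.4 and 37.8 CPM in endothelium. The pericyte gene Rgs5 was at 4036 and 2807 CPM in mural cells and at 998 and 713 CPM in the endothelium class, and its part in the endothelial values was not tested. Kcnmb1, the BK beta subunit of smooth muscle, lies within the span of Kcnip1 on the opposite strand and had 19 and 3 UMIs in mural cells and at most 1 per library in every other class of the fit. Kcnf1, a silent modifier, had 13 and 3 UMIs there (adjusted p = 1.07e-07), and Kcnc4, a Kv3 subunit, was at 35.7 and 63.7 CPM. Of the classes in the fit, mural cells were also the highest by the mean for Kcne4 (9 and 14 UMIs), Kcnt2 (7 and 4 UMIs) and Kcnd2 (2 and 3 UMIs). In endothelium, Kcnq1, the Kv7.1 channel, had 39 and 8 UMIs and at most 1 per library in every other class of the fit (adjusted p = 2.07e-10). Kcnj15 had 15 UMIs in endothelium of library 1 and 0 in library 2, so this value rests on library 1. Kcnj2, a strong inward rectifier, was at 11.8 and 15.9 CPM in endothelium and at 11.5 and 47.6 CPM in neutrophils, the latter from 2 and 6 UMIs.

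Among stromal cells, fibroblasts held a stretch-sensitive two-pore channel and silent modifiers, whose levels differed between the fibroblast clusters described below. In fibroblasts Kcnk2 (TREK-1) was at 47.7 and 33.4 CPM (267 and 87 UMIs, adjusted p = 8.75e-17), and GABAergic amacrine cells followed at 22.7 and 5.62 CPM. Kcns1 and Kcns3, which modify Kv2 channels, were at 17.0 and 6.14 CPM and at 17.3 and 13.8 CPM there. Kcns3 lost its call by DESeq2 (adjusted p = 0.420). Kcne4, an accessory subunit that inhibits Kv1 channels, was spread over fibroblasts (22.0 and 66.0 CPM), the Tagln-rich stroma (16.0 and 94.8 CPM) and mural cells (29.2 and 89.1 CPM), and was the higher in library 2 in each of these. The Tagln-rich stroma also had Kcnip3 at 73.1 and 61.4 CPM (adjusted p = 1.47e-14) and Kcnk13 at 16.9 and 14.7 CPM. Kcnk2 was at 8.91 and 8.68 CPM in that stroma. In endothelium Kcnip3 was at 10.1 and 27.9 CPM, and its call there was lost by limma (adjusted p = 0.108).

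Melanocytes had few members called higher. Among them, Kcnk5 (TASK-2) was at 14.8 and 29.6 CPM, Kcnmb4 at 15.9 and 13.5 CPM (43 and 15 UMIs) and Kcnq5 at 13.3 and 8.98 CPM. The call of Kcnmb4 was lost by limma (adjusted p = 0.176). Schwann cells had the higher Kcnk5 level, from 5 and 3 UMIs. Among immune cells, Kcnn4 (chr7:24370263-24386690), the intermediate-conductance calcium-activated channel KCa3.1 of lymphoid and myeloid cells, was at 38.0 and 45.5 CPM in antigen-presenting cells (adjusted p = 1.26e-12). T or NK cells had 46.8 and 33.3 CPM from 8 UMIs in each library, and macrophages had 8.06 and 8.47 CPM. Kcnk13 (THIK-1), a two-pore channel known from microglia, was at 27.6 and 36.5 CPM in macrophages (48 and 56 UMIs, adjusted p = 1.36e-14). Kcnk6 (TWIK-2) was at 17.8 and 11.1 CPM in the same cells.

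**Figure D5:**
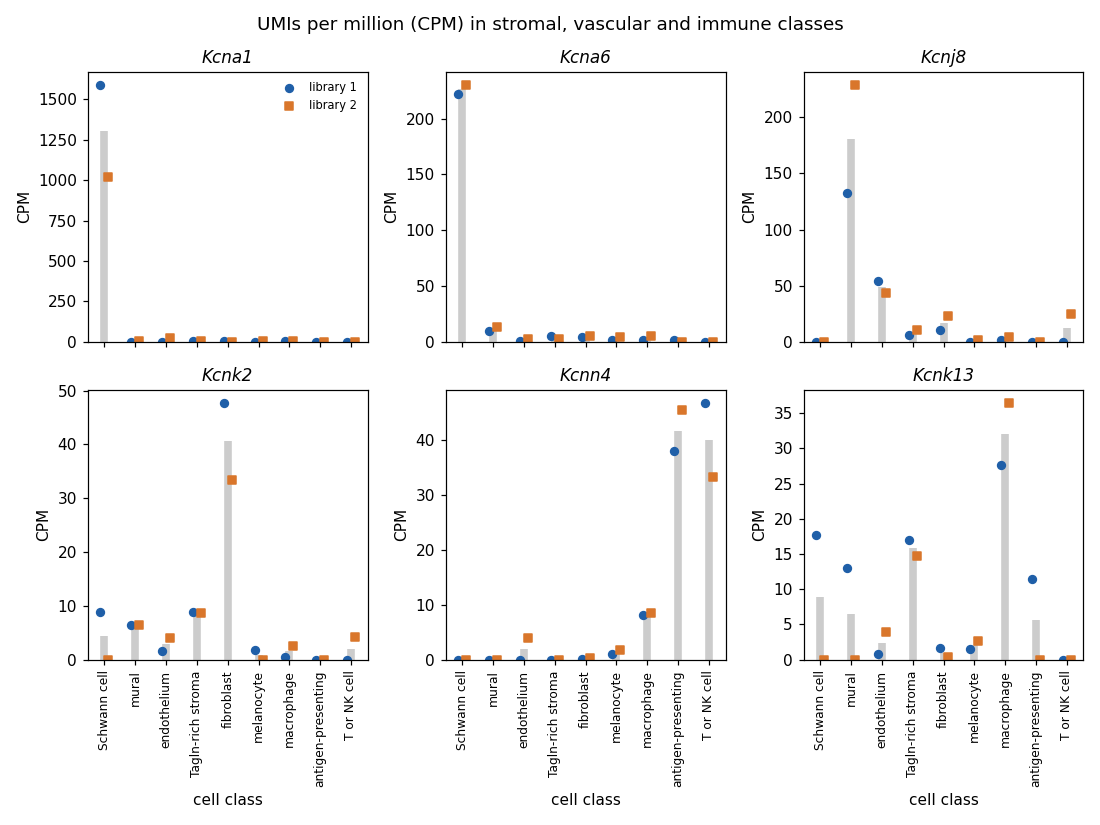
Level (CPM, linear axes that differ between panels) of 6 members in Schwann cells, vascular, stromal and immune classes and melanocytes, 1 point per library and a grey bar to the mean. Kcna1 and Kcna6 stand out in Schwann cells, Kcnj8 in mural cells, Kcnk2 in fibroblasts, Kcnn4 in antigen-presenting and T or NK cells, and Kcnk13 in macrophages.

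Some members were found in nearly every class or in hardly any. Kcnq1ot1, an antisense RNA transcribed across part of Kcnq1, had 7102 UMIs in all, more than any other member, and in the classes of the fit its lowest values were 26.7 CPM in library 1 (Schwann cells) and 31.4 CPM in library 2 (melanocytes). Its highest were 370 CPM in glycinergic amacrine cells of library 1 and 261 CPM in cone bipolar cells of library 2. At the other end, Kcnk4, Kcne3, Kcns2 and Kcnh8 had 5 to 19 UMIs in the 21 classes and were not tested. Kcnn3, Kcnk7 and Kcnu1 had 40, 26 and 40 UMIs in all. Kcnd3os overlaps the start of Kcnd3, so without strand use their reads could not be told apart, as for Kcnq1 and Kcnq1ot1. The modifier Kcng2 was at 10.4 and 5.10 CPM in cone bipolar cells, its highest class by the mean, and Kcnj12 at 18.2 and 8.61 CPM. Kcnd1, a Kv4 subunit, was highest in cones, at 16.4 and 7.94 CPM.

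Other channel and partner genes were counted in the same way, beside the 21.2% of all genes that were higher in neurons and the 8.05% that were lower. Of 12 tested partner proteins of potassium channels, 5 were higher in neurons and 0 lower, with a median log2 fold change of 2.03. The limit from classes at 0 UMIs holds for these lists too. Dpp6, a Kv4 partner, was at 357 and 283 CPM in glycinergic amacrine cells, and Lrrc38, a BK gamma subunit, was at 52.8 and 27.9 CPM in the non-pigmented epithelium. Of 10 tested voltage-gated sodium channel genes, 6 were higher in neurons (median 2.51). The sodium channel-like Scn7a was at 1556 and 1650 CPM in Schwann cells, while Scn3a and Scn3b led in GABAergic amacrine cells at 75.6 and 80.1 CPM and at 49.9 and 44.0 CPM. Of 18 voltage-gated calcium channel genes, 11 were higher in neurons (median 2.19), with Cacna2d3 at 618 and 848 CPM in rod bipolar cells, Cacna1h at 294 and 262 CPM in cone bipolar cells and Cacna1c at 51.9 and 70.0 CPM in mural cells. Of these 18, 3 were higher in the non-pigmented than in the pigmented epithelium, against 3.50% of all genes. Of 8 HCN and cyclic nucleotide-gated channel genes, 5 were higher in neurons (median 2.45). Cnga1, the rod light-current subunit, was at 2402 and 1890 CPM in rods, and Cnga3 (72.2 and 17.5 CPM) and Cngb3 (394 and 94.0 CPM) marked cones. Of 5 cation-chloride cotransporters, 1 was higher and 1 lower in neurons (median -1.62), with the neuronal exporter Slc12a5 at 1214 and 995 CPM in cone bipolar cells, Slc12a4 in the retinal pigment epithelium and Slc12a7 at 36.2 and 52.1 CPM in melanocytes. Between rods and cones, partner proteins had 3 lower in rods, calcium channels 4 lower and HCN and cyclic nucleotide-gated channels 2 higher and 2 lower, against 3.44% of all genes lower and 0.428% higher. In cones without cells holding a bipolar UMI these lower counts were 0, 0 and 2, against 0.971% of all genes. Between the bipolar classes, calcium channels had 1 higher and 5 lower in rod bipolar cells, and sodium and cyclic nucleotide-gated channels 1 lower each. The shares of all genes there were 0.379% higher and 1.36% lower.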

How the data were processed

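The authors deposited raw counts of UMIs, as 1 matrix of genes by barcodes for each library, which per the file headers came from Cell Ranger 3.1.0. The submitters' processing notes also name CASAVA 1.8, Seurat and the builds mm10 and GRCm38. The library kit's tag end, strand use and annotation release are not given in the sources used here. The deposited counts held at least 500 UMIs per barcode. A further deposited matrix per library differed in 0 entries.

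Barcodes under 500 genes or above 30% mitochondrial UMIs were left out. No doublet caller was used. Genes were split at random into 16700 for clustering, which held all 210 markers, and 16756 held out, which held all Kcn genes and the gene lists. Counts were scaled to 10000 per cell, logged and reduced to 30 components over 2000 variable genes, followed by Leiden clustering at resolution 1 (scanpy 1.11.5) of both libraries without integration. Mixed clusters were divided again at resolution 0.3, giving 31. Names came from 34 marker lists: a marker counted at 0.5 per 10000 UMIs and 4 times the median of the other clusters, and 3 had to count. The scoring rule was written and revised after marker levels were seen, so differences from the authors' types may come from these names. A low-UMI cluster with rod genes (236 and 885 cells) stayed unnamed and outside the fit.

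Sums over the cells of each class in each library, 42 for the 21 classes, entered edgeR 4.0.16 (TMM, quasi-likelihood F test, class and library as terms, genes with at least 20 UMIs, 20 residual degrees of freedom), with Benjamini-Hochberg adjustment over 8177 held-out genes. Each standard error is the log2 fold change over the root of F. DESeq2 1.42.0 and limma 3.58.1 were alternatives. Calls needed an adjusted p under 0.05 and a log2 fold change of at least 1. The library number pairs the classes because both come from the same pool. The library term takes out the difference between the 2 pools that all classes share. The p-values measure the disagreement between the pools that remains, estimated over all classes. The rule for values in full took up to 3 members a class and 6 a direction in each pair of classes, by fold, given 10 or more UMIs per library in the higher class and agreement in sign between libraries, and up to 3 genes a list. Other members are given by their highest class. Members and lists were chosen with earlier results of these data known. The fit was tested on simulated data. Gene positions are from GENCODE M21 (GRCm38), in which all 75 members were found, and promoters from RefSeq (56 members matched). Some members and marker genes that count in the totals are not reported here.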

Additional observations from a re-analysis of the deposited data

How the results depend on the processing

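Of 74 named calls, 53 held under every alternative that could give a value, and 21 were lost under at least 1: 11 by limma on log2 CPM, 8 by DESeq2, 7 with no replicate block, and 4 each in cones without cells holding a bipolar UMI, at the 15% mitochondrial limit and with another random split of genes. The fold of Kcnk1, rods over cones, changed sign from negative to positive at resolution 2 (log2 fold change 0.21) and without the 5% of cells with the most UMIs (0.54). Neither value was called, with an adjusted p of 0.906 by edgeR in the latter. Counts that left the range of 1.5 times were these. They are counts of members alone and do not tell whether the share of all genes moved with them. Members lower in neurons were 9 by DESeq2 and 7 by limma, the latter against 15.7% of all genes. That edgeR had 0 follows from how it treats classes at 0 UMIs. Limma further gave 2 higher and 0 lower in the non-pigmented than in the pigmented epithelium, 0 higher and 4 lower in rods than in cones, 0 higher in rod bipolar than in cone bipolar cells, and 2 higher in the pigmented than in the retinal pigment epithelium. Members higher in rods than in cones were 0 by DESeq2, without the replicate block, at the 15% mitochondrial limit, at resolution 2, with another split and in cones without a bipolar UMI, and 2 with no filter. Members lower in rods were 5 without the replicate block, 2 at the 15% limit, 3 at resolution 2, 1 with another split, 3 without the 5% of cells with the most UMIs and 3 in cones without a bipolar UMI. Members higher in rod bipolar cells were 0 and lower there 3 by DESeq2, and 0 and 2 without the replicate block. Members lower in the pigmented than in the retinal pigment epithelium were 5 with no filter and 1 by DESeq2, at the 15% limit, without the 5% of cells with the most UMIs and without Myh11 cells. Otherwise the cause was not tested. The alternatives on Myh11, the low-UMI rod cluster, 10 cells per class, cones and limma were chosen after seeing the data. With 1 library left out there is no residual spread, so counts of calls were not run, and the sign in each library alone was fixed by the naming rule. Depth limits members under 10 UMIs in a class, where 1 or 2 molecules move a level by several CPM.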

Other observations

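Ganglion, horizontal and mast cells had too few cells for the fit and are given as values with no test. Retinal ganglion cells (16 and 48 cells, median 18664 and 20663 UMIs per cell) had Kcnip4 at 269 and 294 CPM, Kcnd2 at 33.6 and 103 CPM, Kcnc1 at 52.3 and 172 CPM and Kcnc2 at 44.8 and 88.1 CPM. Kcnk4, the TRAAK channel, had 22 of its 27 UMIs in these cells, 4 in library 1 and 18 in library 2, and Kcns2 had 3 and 13. Horizontal cells (14 and 51 cells) had Kcnh1 at 84.0 and 67.6 CPM, Kcnh7 at 109 CPM in both libraries and Kcnma1 at 151 and 288 CPM. Mast cells (12 and 10 cells) had 5 UMIs of Kcne3 in each library, of 30 in all.

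The fibroblast class was made of 3 clusters, formed without these genes, and they differed in the members. In the cluster with little Myoc (266 and 377 CPM), Kcnk2 was at 77.8 and 118 CPM and Kcns3 at 3.15 and 2.75 CPM. In a cluster with Myoc at 3412 and 4551 CPM and little Kera (9.40 and 0 CPM), Kcns3 was at 88.1 and 28.6 CPM, Kcnk2 at 14.1 and 9.53 CPM, and Kcns1 had 0 and 1 UMIs. The remaining cluster, with Myoc at 3401 and 4320 CPM and Kera at 56.4 and 78.2 CPM, had Kcnk2 at 37.7 and 30.4 CPM, Kcns1 at 15.5 and 9.20 CPM and Kcns3 at 5.64 and 1.84 CPM. The low-UMI cluster with rod genes had Kcnj14 at 411 and 237 CPM and Kcnv2 at 237 and 144 CPM, beside Cnga1 at 2540 and 1493 CPM.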
